A study of Caenorhabditis elegans with 39 samples.

Results

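Of the 39 RNA libraries of the series, 6 were made from first-stage (L1) larvae of Caenorhabditis elegans whose ancestors had spent a long time as dauers and that were sequenced in batch 1. They were chosen by these 2 labels alone, and 3 were labelled fed and 3 starved. The worms were of N2, the wild-type laboratory strain. Embryos of well-fed parents were put into liquid culture under conditions that form dauers, a stress-resistant arrested larval form, and the animals were recovered after a long stay in it and kept well fed. Descendants of the F3 generation were then cultured in liquid either with food for 18 h or without it for 24 h. Control descendants (4 fed and 5 starved libraries of batch 1) had ancestors kept under control conditions, and short-term dauer descendants (4 fed and 5 starved) had ancestors with a short stay as dauers. Each group of 3 held cultures named LC3_40d, LC3_49d and LC4_49d; what the parts of these names stand for was not given, and LC3_40d and LC3_49d may share a source, in which case p-values measure partly technical spread. Fed larvae were washed 3 to 4 times and starved larvae at most 1 time before freezing, so feeding cannot be told apart from hours in culture or from washing.

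L1 larvae that hatch without food stop developing before their first postembryonic cell divisions and live on stored lipid. When food is present, they grow, replicate DNA in blast cells and make the new cuticle, a collagen-rich coat, that is needed for the first moult. Insulin-like signalling through the receptor DAF-2, which holds the transcription factor DAF-16 out of the nucleus, is a main control of this choice, together with TOR and AMPK signalling. Loss of food is known to raise genes for fat breakdown, lysosomal lipases and stress defence.

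Each library held 24729267 to 29887342 reads counted on genes. Reads listed as outside genes made up 1.75% to 2.18% in the 3 fed libraries, 3.39% and 3.59% in starved LC3_49d and LC3_40d, and 2.49% in starved LC4_49d. No pair of the 6 libraries held identical counts. Markers of adult gonad and yolk (39 features, of which 15 had no read in any of the 6 libraries) summed to 11.1 to 17 CPM in each library (CPM, reads on a gene scaled to the total of the library), and 6 early embryo markers to at most 2.82 CPM. Markers of intestine, epidermis, body wall muscle, pharynx, neurons and germ cells had reads in all 6 libraries, except 1 of the 5 muscle markers.

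The library labelled starved LC4_49d stood apart from its group. For each library, a position was computed on a scale whose end points came from control descendants only. On it, 0 is the mean of starved and 1 the mean of fed control larvae. The position is the median over 5838 genes that differed between them. Those genes were called in a fit of all 24 batch 1 libraries, which share its filter, scaling and spread. Fed long-term dauer descendants lay at 1.01, 0.876 and 1.02 in LC3_40d, LC3_49d and LC4_49d. Starved LC3_40d lay at 0.0242 and starved LC3_49d at 0.0225, whereas starved LC4_49d lay at 0.968, inside the range of the fed libraries. The 4 starved long-term dauer libraries of batch 2, of the same strain and hours, lay between -0.00686 and 0.0134. The response is therefore described from 3 fed and the other 2 starved libraries, and values with all 6 stand beside it. Leaving the library out was a choice made on its expression values, so the count of genes without it is not an independent result. Throughout, its name means the library labelled starved LC4_49d.

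**Figure D1:**
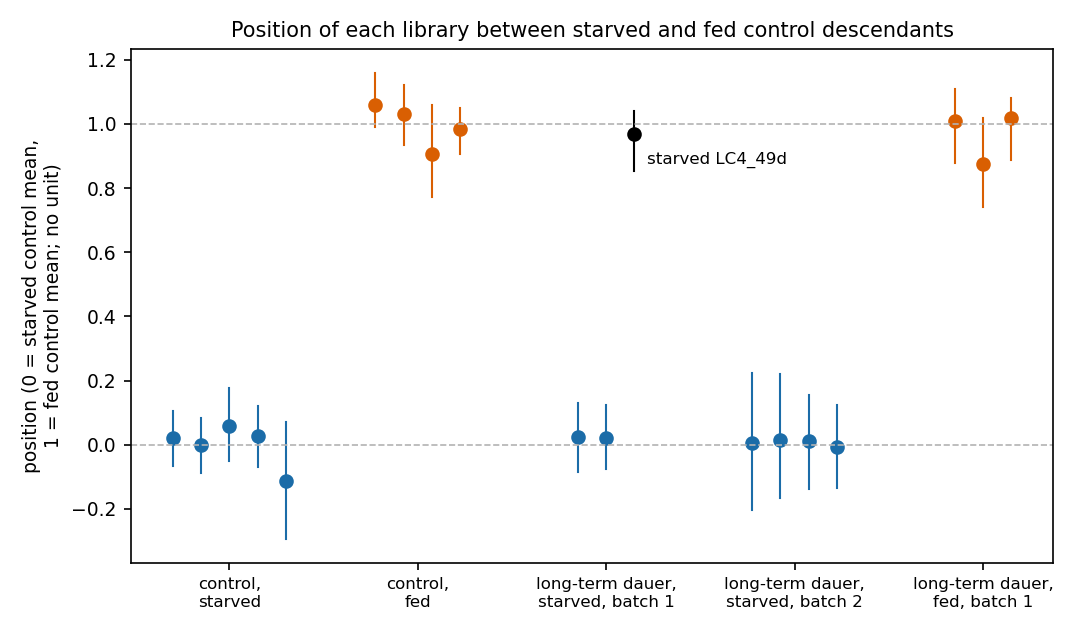
Median position of each library (points) with the quartiles over 5838 genes (lines) on a scale without unit from starved (0) to fed (1) control descendants, by ancestry, feeding and batch. Starved LC4_49d (black, 0.968) lies with the fed libraries, and 6 further starved libraries of this ancestry lie between -0.00686 and 0.0242.

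Without starved LC4_49d, fed and starved larvae differed in 7929 of 20363 tested genes (38.9%), 4886 higher (24.0%) and 3043 lower (14.9%) in fed larvae, at an adjusted p under 0.05 in edgeR's quasi-likelihood test; "rose" and "fell" below mean passing this test, in fed relative to starved larvae. Changes of more than 1 on the log2 scale were found for 2904 genes that rose and 1911 that fell. The median log2 fold change of all tested genes was -0.14. Counts of list members below are to be read beside the shares of all genes, 24.0% that rose and 14.9% that fell. A list whose counts lie near these shares gives no result about that list. Scaling by library size alone moved that median to -0.47 and the split to 3527 higher and 4730 lower, so the balance between directions depends on the scaling, and small changes are to be read relative to it. Leaving out starved LC3_40d or starved LC3_49d left 5192 and 5293 genes. With all 6 libraries, 2356 of 19406 genes (12.1%) passed, 1128 higher (5.81%) and 1228 lower (6.33%), and leaving out any 1 of the other 5 libraries left 0 to 297. All 2356 were also called without starved LC4_49d, in the same direction.

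Among genes with a symbol whose higher group averaged 10 CPM or more, the 10 largest increases were in genes of the cuticle, its matrix or moulting. They comprised 6 cuticle collagens (col-17, rol-8, sqt-2, dpy-13, dpy-5 and col-90), the lipocalin-related matrix proteins lpr-3, lpr-4 and lpr-5, and acn-1, an angiotensin-converting-enzyme-like protein needed for moulting. Values are given in the order LC3_40d, LC3_49d and LC4_49d. The collagen gene col-17 had 1352, 792 and 1494 CPM in fed larvae, 3.58 and 3.58 CPM in the first 2 starved libraries and 1031.5 CPM in starved LC4_49d. The log2 fold change was 8.35 (SE 0.615, adjusted p = 8.92e-10) without that library and 1.81 (adjusted p = 0.279) with it. The 3 fed libraries did not overlap with starved LC3_40d and LC3_49d, and starved LC4_49d fell among the fed values.

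For dpy-13, a collagen that sets body length, fed larvae had 1111, 633 and 1165 CPM, the 2 starved libraries 3.74 and 3.43 CPM, and starved LC4_49d 738 CPM (log2 fold change 8.03, SE 0.539, adjusted p = 2.26e-10). Transcripts of acn-1 stood at 316, 153 and 295 CPM in fed larvae, at 1.39 and 0.996 CPM in starved LC3_40d and LC3_49d, and at 245 CPM in starved LC4_49d (7.68, SE 1.13, adjusted p = 1.84e-05). In each of these genes fed LC3_49d was the lowest of the fed libraries.

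**Figure D2:**
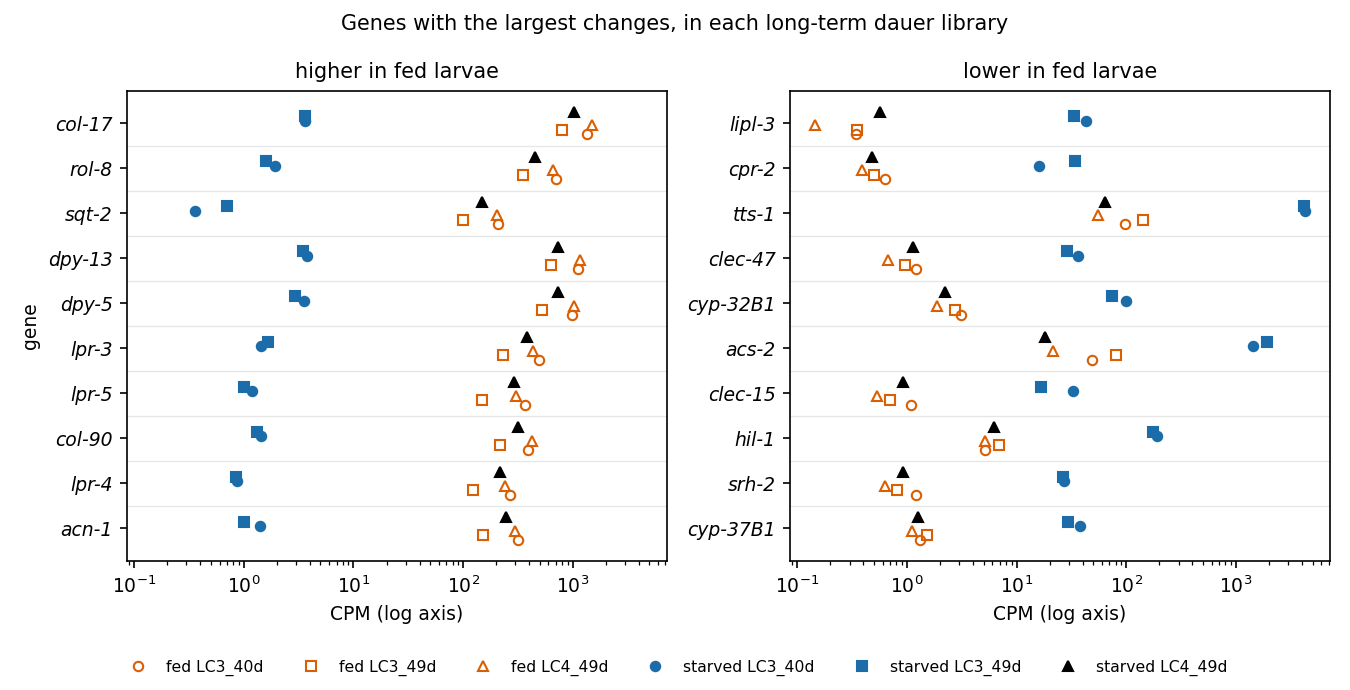
CPM on a log axis in each of the 6 libraries for the 10 genes with the largest increase (left) and the 10 with the largest decrease (right) in fed larvae among genes with a symbol whose higher group averaged 10 CPM or more, one point per library. Fed (open orange) and starved (filled blue) libraries are separate in all 20 genes, and starved LC4_49d (black) lies on the fed side in each.

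All 6 collagens of the annular furrows, the circular grooves of the cuticle, rose, with a median log2 fold change of 6.72 against -0.14 over all genes. Among them, dpy-7 went from 4.05 and 2.62 CPM in starved LC3_40d and LC3_49d to 437, 186 and 348 CPM in fed larvae (6.55, SE 0.837, adjusted p = 2.99e-06), with 278 CPM in starved LC4_49d. Of 13 other collagens that set body shape, 9 rose and none fell (median 6.99); sqt-3 rose by 6.99 (SE 0.776, adjusted p = 3.84e-07), while dpy-17, with 15, 27.3 and 56.3 CPM in fed and 5.36 and 4.39 CPM in starved larvae, did not pass (2.70, adjusted p = 0.107). Over 153 collagens known by number, 60 rose and 16 fell (47 and 7 without starved LC3_40d, 52 and 8 without starved LC3_49d), and their median of 0.28 turned to -0.06 with library size scaling. With all 6 libraries, none of the 6 furrow and none of the 13 body-shape collagens passed, and their medians were 1.73 and 1.77.

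Enzymes that process collagen rose in part. Of 12, 6 rose and 2 fell (median 0.71; 1 fell without either starved library or without fed LC3_40d). The prolyl 4-hydroxylase subunits behaved in parallel: dpy-18 had 228, 145 and 200 CPM in fed larvae, 25.7 and 27 CPM in starved LC3_40d and LC3_49d and 165 CPM in starved LC4_49d (2.81, SE 0.235, adjusted p = 2.6e-09), and pdi-2, the disulphide isomerase subunit, rose by 2.82 (SE 0.289, adjusted p = 4.16e-08). The related hydroxylase phy-3 fell, from 2.98 and 3.65 CPM to between 0.201 and 0.242 CPM (-3.90, SE 0.726, adjusted p = 0.000131). Starved LC4_49d had 0.349 CPM of it.

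Regulators and effectors of the moulting cycle rose with the collagens. Of 9 regulators, 7 rose (median 2.11). The period-like gene lin-42, whose transcript oscillates with the moults, had 548, 276 and 536 CPM in fed larvae, 6.83 and 5.35 CPM in starved LC3_40d and LC3_49d and 370 CPM in starved LC4_49d (6.17, SE 0.641, adjusted p = 1.41e-07). The transcription factors myrf-1 and blmp-1 rose by 2.90 (SE 0.305, adjusted p = 5.88e-08) and 2.11 (SE 0.244, adjusted p = 2.23e-07).

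Of 20 moulting effectors, 16 rose (median 6.03). The protease inhibitor mlt-11 had 1431, 623 and 1100 CPM in fed larvae and 5.76 and 5.13 CPM in starved LC3_40d and LC3_49d, with 884 CPM in starved LC4_49d (7.54, SE 1.09, adjusted p = 1.37e-05). The zona pellucida domain protein noah-1 rose by 6.81 (SE 0.864, adjusted p = 2.61e-06). The low-density lipoprotein receptor-related gene lrp-1 did not pass, at 645 to 893 CPM in fed and 575 and 581 CPM in starved larvae (0.44, adjusted p = 0.296). Of 11 hedgehog-related genes, 8 rose (5 without starved LC3_40d or without starved LC3_49d), among them wrt-10 by 6.77 (SE 0.741, adjusted p = 3.77e-07) and qua-1, needed for moulting, by 4.59 (SE 0.362, adjusted p = 1.21e-09). Of 6 epidermal markers, among them dpy-7 and nhr-25, which the lists above also hold, 4 rose and none fell. Their summed level was 399 to 684 CPM in fed larvae, 157 and 159 CPM in the 2 starved libraries and 552 CPM in starved LC4_49d. The collagen dpy-7 alone, with the values given above, made up a large part of the sum in fed larvae and starved LC4_49d. In the 2 starved libraries it made up a small part. The part of these markers in the result was not tested. In bulk larvae, more epidermal cells and more RNA per cell cannot be told apart.

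All 33 DNA replication genes rose (median 1.62), with 28 under library size scaling and 29 without the filter on low counts. The sliding clamp gene pcn-1 had 180, 161 and 168 CPM in fed larvae and 34.6 and 31.1 CPM in starved LC3_40d and LC3_49d, with 149 CPM in starved LC4_49d (2.33, SE 0.227, adjusted p = 1.99e-08). The ribonucleotide reductase subunit rnr-1 rose by 2.09 (SE 0.236, adjusted p = 1.6e-07). With all 6 libraries, 19 of the 33 still passed, pcn-1 at a log2 fold change of 1.24 (adjusted p = 0.0359).

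Of 21 genes of the cell cycle, 12 rose and none fell (median 0.74). The mitotic kinase cdk-1 had 107, 78.2 and 101 CPM in fed larvae and 15.8 and 14.7 CPM in starved LC3_40d and LC3_49d (2.60, SE 0.169, adjusted p = 1.33e-10). Its partner cyclin cyb-3 rose by 2.85 (SE 0.503, adjusted p = 0.000114) and the G1 cyclin cyd-1 by 0.90 (SE 0.227, adjusted p = 0.00249). In all 3, starved LC4_49d was within the fed values, with 89.6 CPM of cdk-1. Germ cell markers, of which 3 of 6 rose and 1 fell, summed to 146 to 172 CPM in fed larvae, 91.1 and 98.5 CPM in the 2 starved libraries and 128 CPM in starved LC4_49d, and their part in these changes was not tested.

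Of 21 nucleolar and assembly factors, 19 rose and 1 fell (median 1.58). Fibrillarin (fib-1), which methylates ribosomal RNA, had 1606, 1735 and 1644 CPM in fed larvae and 241 and 257 CPM in starved LC3_40d and LC3_49d, with 1454 CPM in starved LC4_49d (2.70, SE 0.255, adjusted p = 1.34e-08). The exception was lpd-7, a pescadillo-related gene, which fell from 743 and 785 CPM to 323 to 371 CPM (-1.20, SE 0.253, adjusted p = 0.000485). Of 75 ribosomal protein genes, 49 rose and 2 fell (median 0.62), rps-4 by 0.70 (SE 0.233, adjusted p = 0.0201). How many passed depended on the fit. With both starved libraries kept, from 14 (no filter on low counts) to 73 (limma voom) of the 75 rose, and 19 without fed LC3_49d. Few passed when a starved library was left out, where the median was 0.6 without starved LC3_40d and 0.73 without starved LC3_49d. With library size scaling the median was 0.28. The call of rps-4 was lost without starved LC3_40d, without starved LC3_49d and without fed LC3_49d (adjusted p = 0.0577 in the last).

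Protein turnover, folding and export genes rose as well. Of 33 proteasome genes, 32 rose (median 1.81), and 28 still passed with all 6 libraries. The base subunit rpn-1 had 369, 265 and 358 CPM in fed larvae, 108 and 108 CPM in starved LC3_40d and LC3_49d and 301 CPM in starved LC4_49d (1.57, SE 0.227, adjusted p = 5.29e-06). The core subunit pbs-5 rose by 1.79 (SE 0.218, adjusted p = 5.05e-07). Of the list, rpn-6.2 alone did not pass, at 2.42 to 2.75 CPM in fed and 4.01 and 3.14 CPM in starved larvae.

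Among 11 large chaperones, 10 rose (median 2.17). The Sec61 translocon and the COPII coat carry secreted proteins into and out of the endoplasmic reticulum. All 13 of their genes rose (median 1.63), with 12 under library size scaling and 12 without the filter on low counts. The Hsp70 gene hsp-1 had 3994, 4173 and 4167 CPM in fed larvae and 675 and 781 CPM in starved LC3_40d and LC3_49d, with 3526 CPM in starved LC4_49d (2.46, SE 0.281, adjusted p = 2.01e-07). The channel subunit sec-61.A rose by 2.54 (SE 0.296, adjusted p = 2.63e-07) and the ER chaperone calreticulin (crt-1) by 1.33 (SE 0.252, adjusted p = 0.00015). Small heat shock proteins were on the same side, with 9 of 14 higher and 1 lower in fed larvae (median 2.53; 0 lower without either starved library and 4 lower with library size scaling); hsp-17 went from 19.9 and 12.2 CPM in starved to 64.5 to 78.1 CPM in fed larvae (2.13, SE 0.283, adjusted p = 1.83e-06). Several hsp-16 genes have near-identical copies, among which the counting could split reads, so their single values are not given.

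Among genes with a symbol whose higher group averaged 10 CPM or more, the 10 largest decreases in fed larvae fell in several gene classes. The lysosomal lipase lipl-3, known to be induced by fasting, had 0.343, 0.352 and 0.145 CPM in fed larvae (6, 7 and 3 reads) and 43.1 and 33.4 CPM in starved LC3_40d and LC3_49d, with 0.567 CPM in starved LC4_49d. It fell by 7.12 on the log2 scale (SE 0.534, adjusted p = 2.11e-09), and by 6.56 with all 6 libraries (adjusted p = 0.00915). The acyl-CoA synthetase acs-2, a target of the fasting receptor NHR-49, had 48.4, 81 and 21.5 CPM in fed larvae, 1430 and 1905 CPM in the 2 starved libraries and 18 CPM in starved LC4_49d (-5.07, SE 1.06, adjusted p = 0.000736). In both genes all fed values and starved LC4_49d were far below the other 2 starved libraries.

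The long noncoding RNA tts-1, known for its abundance in dauers and in long-lived daf-2 mutants, had 98, 141 and 55.3 CPM in fed larvae, 4291 and 4170 CPM in starved LC3_40d and LC3_49d and 63.4 CPM in starved LC4_49d (-5.45, SE 0.465, adjusted p = 4.7e-09). The linker histone variant hil-1 had 5.21, 6.89 and 5.14 CPM in fed and 190 and 174 CPM in starved larvae (-5.02, SE 0.344, adjusted p = 2.78e-10), with 6.19 CPM in starved LC4_49d. The rest of these 10 genes were the cathepsin B-like protease cpr-2 (-5.67), the C-type lectin genes clec-47 (-5.16) and clec-15 (-5.05, 1 of the features with that symbol), the cytochrome P450 genes cyp-32B1 (-5.11) and cyp-37B1 (-4.71) and the chemoreceptor-family gene srh-2 (-4.97). Exons of acn-1, col-90, lpr-3, lipl-3, srh-2 and cyp-37B1 overlap those of another gene, so part of their reads may belong to it. All 10 that fell also passed with all 6 libraries, at log2 fold changes of -6.56 to -4.17.

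Within the lipid lists, synthesis and breakdown genes went both ways. Of 16 genes of fasting lipid use, 4 rose and 4 fell, beside 24.0% and 14.9% of all genes tested. Beside acs-2, the hydroxyacyl-CoA dehydrogenase gene hacd-1 fell from 367 and 462 CPM to 26.9 to 37.4 CPM (-3.73, SE 0.846, adjusted p = 0.00145), whereas the carnitine palmitoyltransferase-like gene cpt-4 rose from 1.79 and 1.25 CPM to 33.5 to 61.9 CPM (4.97, SE 0.642, adjusted p = 3.31e-06). Starved LC4_49d had 33.8 CPM of the first and 50.4 CPM of the second, in the range of the fed libraries. Of 10 genes of the lysosomal lipase list, 3 fell and lipl-6 rose by 2.88 (SE 0.505, adjusted p = 9.32e-05); lipl-4 fell by 4.74 (SE 0.54, adjusted p = 1.87e-07). The regulator of these lipases, hlh-30, did not pass, at 291 to 400 CPM in fed and 427 and 518 CPM in starved larvae (-0.49, adjusted p = 0.145).

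Of 14 genes of fatty acid synthesis, 3 rose and 7 fell (median -0.51). Fatty acid synthase (fasn-1) had 1887, 1398 and 1595 CPM in fed larvae and 406 and 425 CPM in starved LC3_40d and LC3_49d (1.93, SE 0.346, adjusted p = 8.23e-05). The acyl-CoA synthetase acs-1, which acts on branched-chain fatty acids, rose by 2.14 (SE 0.222, adjusted p = 4.96e-08). The desaturases fat-2 and fat-3, which make polyunsaturated fatty acids, fell by 1.57 (SE 0.29, adjusted p = 0.000109) and 1.49 (SE 0.258, adjusted p = 5.07e-05). Acetyl-CoA carboxylase (pod-2), the step before fatty acid synthase, had 1098, 1039 and 937 CPM in fed and 2228 and 2998 CPM in starved larvae (-1.39, SE 0.386, adjusted p = 0.00585), and did not pass without starved LC3_49d (adjusted p = 0.116).

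Central carbon metabolism showed a few large changes in lists that were otherwise near the median. In the glyoxylate shunt, which turns fat into sugar precursors, the bifunctional enzyme gene icl-1 had 789, 839 and 498 CPM in fed larvae and 3684 and 4254 CPM in starved LC3_40d and LC3_49d, with 361 CPM in starved LC4_49d (-2.52, SE 0.601, adjusted p = 0.00201). Of the 10 genes of this list, 2 rose and 2 fell; leaving out either starved library left 0 that rose and 1 that fell, and the list's median of 0.18 was -0.15 with library size scaling. Trehalose synthase tps-1, which makes a storage and protectant sugar, fell from 271 and 272 CPM to 100 to 132 CPM (-1.32, SE 0.233, adjusted p = 6.83e-05). Of 18 glycolytic genes, 5 rose and 3 fell (2 and 1 without starved LC3_40d, 4 and 1 without starved LC3_49d), phosphoglycerate kinase (pgk-1) by 1.08 (SE 0.212, adjusted p = 0.000231), and the median of 0.19 was -0.13 with library size scaling.

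In the methionine cycle and the linked synthesis of phosphocholine, 6 of 11 genes rose and 1 fell (median 0.75). The hydrolase ahcy-1 had 5002, 4505 and 5145 CPM in fed larvae and 872 and 1077 CPM in starved LC3_40d and LC3_49d, with 4687 CPM in starved LC4_49d (2.28, SE 0.268, adjusted p = 2.89e-07), and the S-adenosylmethionine synthase sams-1 rose by 1.87 (SE 0.345, adjusted p = 0.00011). The 2 methyltransferases that act in sequence on phosphoethanolamine differed in direction: pmt-1 fell (-1.44, SE 0.252, adjusted p = 6.18e-05) and pmt-2 rose (1.32, SE 0.239, adjusted p = 8.52e-05). Of 41 respiratory chain genes, 12 rose and 1 fell (6 and 1 without either starved library), and with library size scaling 12 rose and 13 fell, so no direction is given for that list.

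Of 21 subunits of the vacuolar proton ATPase, 18 rose (median 0.81; 8 without starved LC3_40d and 10 without starved LC3_49d), vha-8 from 402 and 405 CPM to 908 to 972 CPM (1.18, SE 0.2, adjusted p = 3.97e-05). Of 26 autophagy genes, 12 fell and 2 rose (median -0.39). The ubiquitin-like lgg-1 had 324, 368 and 332 CPM in fed larvae, 543 and 614 CPM in starved LC3_40d and LC3_49d and 316 CPM in starved LC4_49d (-0.80, SE 0.224, adjusted p = 0.00614). Only 4 of these genes fell without starved LC3_40d and 1 without starved LC3_49d, and lgg-1 then had adjusted p = 0.156 in the latter. The gut cathepsin cpr-5 rose by 4.18 (SE 0.311, adjusted p = 5.8e-10) and the lysozyme ilys-5 by 5.71 (SE 0.387, adjusted p = 1.98e-10), from 5.05 and 5.54 CPM to 269 to 313 CPM. Intestinal markers, of which 2 of 7 rose and 1 fell, summed to 2631 to 3028 CPM in fed larvae, 1646 and 1823 CPM in the 2 starved libraries and 2483 CPM in starved LC4_49d, and their part in these changes was not tested.

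Genes of the insulin-like pathway changed modestly. Of 19, 2 rose and 7 fell (median -0.02). The receptor gene daf-2 had 194, 209 and 199 CPM in fed larvae, 396 and 436 CPM in starved LC3_40d and LC3_49d and 177 CPM in starved LC4_49d (-1.09, SE 0.31, adjusted p = 0.00661). The transcription factor gene daf-16 fell by 0.81 (SE 0.211, adjusted p = 0.00326), and the kinase gene akt-1 by 0.66 (SE 0.213, adjusted p = 0.0164). Without starved LC3_49d, where 2 of the list fell, daf-2, daf-16 and akt-1 had adjusted p = 0.0964, 0.149 and 0.128. Without starved LC3_40d, where 5 fell, akt-1 did not pass (adjusted p = 0.211), whereas daf-2 and daf-16 did. The 14-3-3 gene par-5 and the DAF-16 corepressor gene hcf-1 rose by 0.79 (SE 0.201, adjusted p = 0.00267) and 0.85 (SE 0.168, adjusted p = 0.00023); par-5 had adjusted p = 0.0812 without starved LC3_40d.

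Among 34 insulin-like peptides tested of 39 found, 6 rose and 8 fell (4 and 5 without starved LC3_49d). The agonist daf-28 had 46.8, 51.9 and 66 CPM in fed larvae and 17.7 and 21.2 CPM in starved LC3_40d and LC3_49d, with 50.7 CPM in starved LC4_49d (1.45, SE 0.22, adjusted p = 9.78e-06). The peptide gene ins-33 rose by 4.14 (SE 0.663, adjusted p = 2.32e-05). In the other direction, ins-17 had 27.9, 32.6 and 32.1 CPM in fed and 79.3 and 90.1 CPM in starved larvae (-1.49, SE 0.199, adjusted p = 1.72e-06), and ins-24 fell by 2.41 (SE 0.224, adjusted p = 1.12e-08).

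In the dauer hormone and TGF-beta pathways, 3 of 15 genes rose and 2 fell (8 with library size scaling). The oxygenase gene daf-36, which acts at the start of dafachronic acid synthesis, had 27, 25.1 and 24.7 CPM in fed larvae and 1.87 and 2.58 CPM in starved LC3_40d and LC3_49d, with 27.3 CPM in starved LC4_49d (3.48, SE 0.355, adjusted p = 5.36e-08). The nuclear receptor of this hormone, daf-12, rose by 1.11 (SE 0.228, adjusted p = 0.000362), and the TGF-beta receptor gene daf-4 fell by 1.01 (SE 0.219, adjusted p = 0.000661). Among 19 genes of nutrient sensing, 3 rose and 4 fell (1 fell without starved LC3_40d, 2 without starved LC3_49d and 10 with library size scaling). The AMPK gamma subunit gene aakg-4 had 13.4, 14 and 10.4 CPM in fed and 72.9 and 65.8 CPM in starved larvae (-2.49, SE 0.243, adjusted p = 2.07e-08), and the Rag GTPase gene ragc-1, which couples amino acids to TOR, rose by 0.98 (SE 0.167, adjusted p = 4.18e-05).

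Of 11 antioxidant and metal defence genes, 2 rose (1 without starved or fed LC3_40d) and 3 fell. The metallothionein mtl-1 had 2.06, 2.97 and 2.18 CPM in fed larvae, 44 and 36 CPM in starved LC3_40d and LC3_49d and 1.53 CPM in starved LC4_49d (-4.08, SE 0.982, adjusted p = 0.00238). The superoxide dismutases differed: the DAF-16 target sod-3 fell by 3.71 (SE 0.973, adjusted p = 0.0045), the extracellular sod-4 fell by 1.61 (SE 0.225, adjusted p = 3.31e-06), and the mitochondrial sod-2 rose by 0.94 (SE 0.21, adjusted p = 0.000871). Cytosolic sod-1 did not pass, at 192 to 208 CPM in fed and 139 and 148 CPM in starved larvae (adjusted p = 0.0621). Exons of sod-1, sod-2, sod-3 and sod-4 overlap those of other genes, and the library kit did not keep the strand, so reads of the partners cannot be separated from theirs.

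Neuropeptide genes of the FMRFamide-like (flp) family fell nearly as a whole, with 28 of 30 lower in fed larvae (median -1.01), and 16 still lower with all 6 libraries. The gene flp-1 had 103, 102 and 98 CPM in fed larvae, 229 and 226 CPM in starved LC3_40d and LC3_49d and 81.7 CPM in starved LC4_49d (-1.21, SE 0.221, adjusted p = 0.000102). All 3 fed values were below both starved ones, and starved LC4_49d was lowest. The peptide gene flp-18 fell by 1.28 (SE 0.183, adjusted p = 4.92e-06). Without starved LC3_49d, 19 of the 30 passed. Of 8 neuronal markers, 1 fell and none rose (median -0.14; with library size scaling all 8 fell), and their summed level was 1427 to 1663 CPM in fed larvae, 2221 and 2366 CPM in the 2 starved libraries and 1476 CPM in starved LC4_49d. Its part in the flp result was not tested, and it cannot be told apart whether the tissue or its RNA per cell changed.

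The lists of heterochronic and small-RNA genes had modest medians of 0.3 and 0.36, against -0.14 over all genes. Of 8 heterochronic genes, 2 rose and lin-28, which keeps cells in early larval fates, fell by 0.71 (SE 0.224, adjusted p = 0.0136), though not without either starved library (adjusted p = 0.146 and 0.136). Of 29 genes of small-RNA inheritance, 13 rose and none fell (median 0.36; 8 rose without starved LC3_49d, and 7 rose and 3 fell with library size scaling). The nuclear RNAi factor nrde-2 had 165, 158 and 155 CPM in fed and 100 and 107 CPM in starved larvae (0.58, SE 0.174, adjusted p = 0.00932; 0.155 without starved LC3_40d and 0.0784 without starved LC3_49d).

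**Figure D3:**
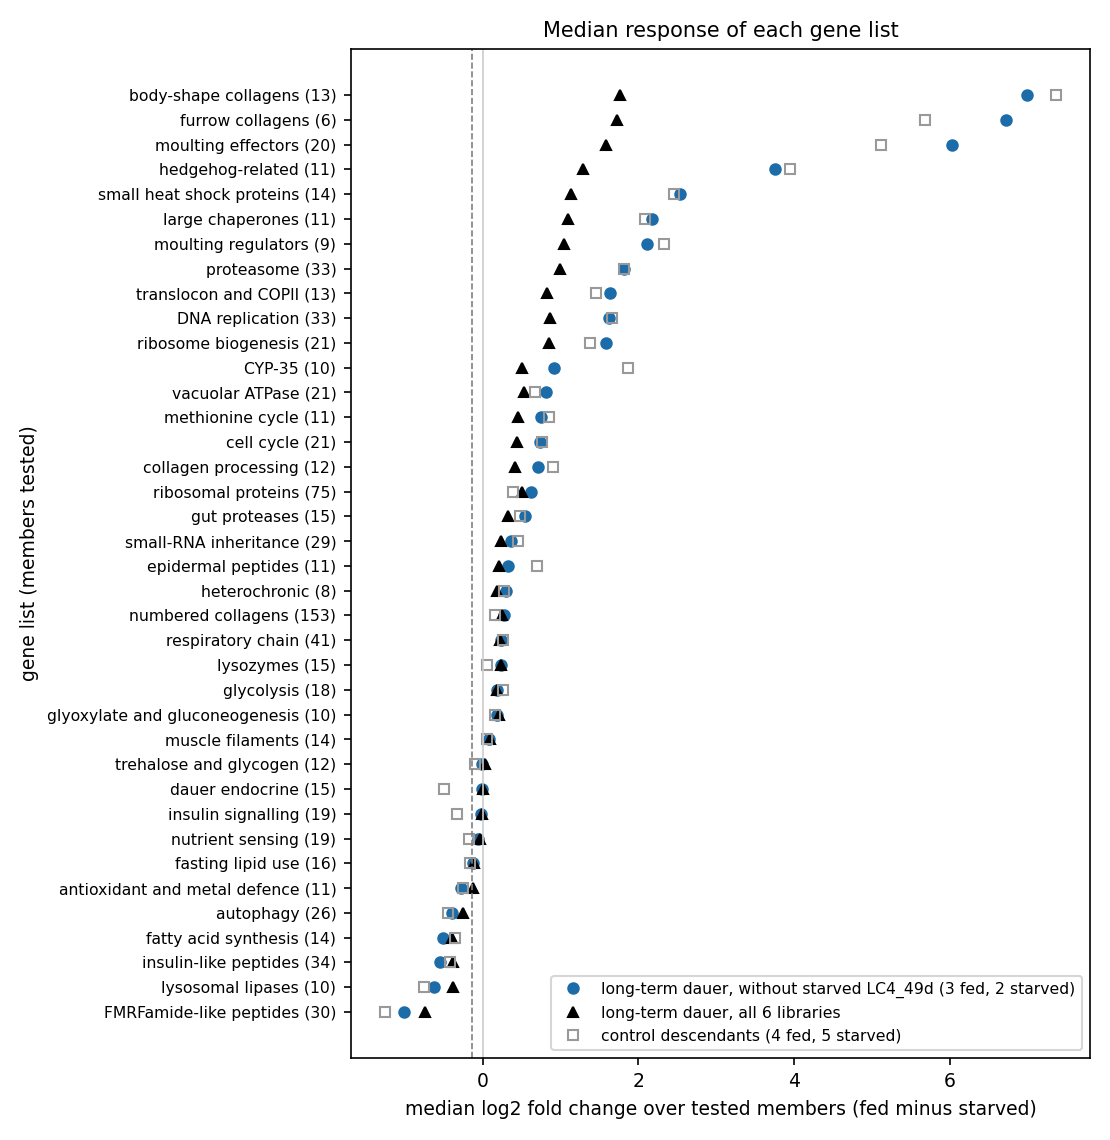
Median log2 fold change (fed minus starved) over the tested members of each of the 38 gene lists in long-term dauer descendants without starved LC4_49d (circles), with all 6 libraries (triangles) and in control descendants (squares); the dashed line is the median of all genes, -0.14. The furrow collagens, body-shape collagens and moulting effectors have medians of 6.03 to 6.99 without starved LC4_49d and of at most 1.77 with it; the FMRFamide-like peptides have the lowest median, -1.01.

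Of 1251 pseudogenes tested, 44 rose (3.52%) and 196 fell (15.7%); of 919 features annotated as noncoding RNA, 6 rose (0.653%) and 65 fell (7.07%). Among 17647 protein-coding genes, 27.1% rose and 15.4% fell, and over all genes tested 24.0% rose and 14.9% fell. The share that fell was thus near that of all genes for pseudogenes and below it for noncoding RNA, and the share that rose was below it for both. The share of reads outside genes was lower in fed larvae, as given above for each library, and its part in these counts was not tested.

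Among the largest changes, including starved LC4_49d moved the rises more than the falls. Over 409 genes that rose by more than 4 on the log2 scale without starved LC4_49d, the median of 5.22 was lower by 3.71 with all 6, and none passed. Over 99 genes that fell by more than 4, the median went from -4.70 to -4.17, and 86 passed. By arithmetic on the means, with 1 of 3 starved libraries exactly at the fed level and the other 2 near 0, a rise on the log2 scale would come to 1.58, and more where that library lies below the fed mean; the highest value among the 409 was 2.27. A large fall would lose 0.58.

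Starved LC4_49d lay close to the fed libraries across most of the response. Of the 4815 genes called with a change of more than 1 on the log2 scale without it, it was nearer to the fed mean in 4609 (95.7%), made up of 2901 of 2904 genes that rose (99.9%) and 1708 of 1911 that fell (89.4%). Of 8783 genes with a mean of at least 10 CPM, it lay below the range of the 3 fed libraries in 2471 and above it in 1068, but in none by more than 1 on the log2 scale. Many such genes arise for any library set beside 3 others of its kind, so these counts alone do not measure a departure. More genes lay below the range than above it, and the reason was not tested. The genes farthest below that range included epic-2, with 174 CPM against 288, 490 and 296 CPM in fed larvae, and the RNA helicase gene eif-4A3, whose product is part of the exon junction complex, with 40.5 against 60.1, 74.6 and 71 CPM. The farthest above it were ZK1240.3 (15.3 against 10.4, 10.5 and 11.6 CPM) and D1014.4 (16 against 10.9, 12.3 and 11.5 CPM). The 2 starved libraries beside it had 25.9 and 35.6 CPM of eif-4A3 and 19.8 and 21.4 CPM of ZK1240.3, so for these 2 genes starved LC4_49d was between the groups.

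Its distance from the fed libraries was largest in weakly expressed starvation genes. Over 565 genes lower in fed control descendants and under 1 CPM in starved ones, starved LC4_49d lay at a median position of 0.616, against 0.794 to 0.966 in the 3 fed libraries. Over 232 such genes at 100 CPM or more, it lay at 1.02, against 0.818 to 0.969. The 2 other starved libraries stayed between -0.00907 and 0.0995 at all levels. It had reads on 25630 features, more than the fed libraries (21803 to 24157) and fewer than starved LC3_40d (27366) and LC3_49d (26570), with the highest total count of the 6. The part that depth and the share of reads outside genes have in this was not tested.

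**Figure D4:**
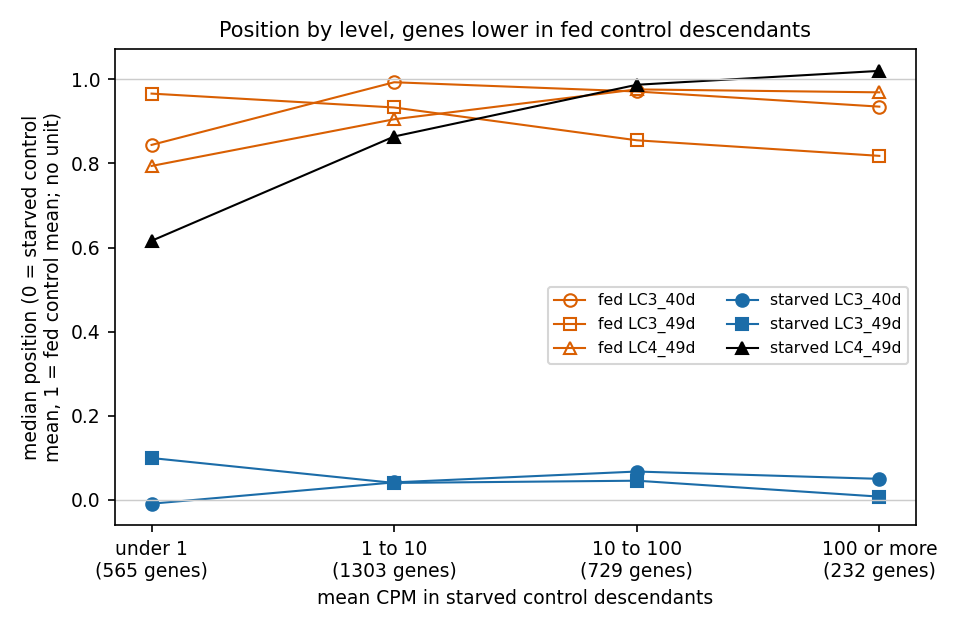
Median position (0, starved control mean; 1, fed control mean; no unit) of each of the 6 libraries over genes lower in fed control descendants, by their mean CPM in starved control descendants. Starved LC4_49d (black) rises from 0.616 in genes under 1 CPM to 1.02 in genes at 100 CPM or more, while fed (orange) and starved (blue) libraries otherwise lie at 0.794 to 0.993 and at -0.00907 to 0.0995.

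Fed LC3_49d was the most distant of the fed libraries. Of the 8783 genes with at least 10 CPM, 89 lay more than 1 on the log2 scale below both other fed libraries and 2 above them, against 3 below and 6 above for each of the others. Its position was 0.864 over the moulting effectors, 0.877 over the furrow collagens and 0.83 over hedgehog-related genes, where the other 2 fed libraries were at 1.01 or higher. It was not low throughout, with 0.981 over DNA replication and 1.09 over ribosome biogenesis. Leaving it out gave 7361 called genes in place of 7929.

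The starved long-term dauer libraries of batch 2 are compared as a check on the 2 starved libraries, since none of them entered the test. Of the same 4815 genes, they were nearer to the starved mean in 91% to 97%, against 4.28% for starved LC4_49d. In these libraries lipl-3 had 26.1 to 29.8 CPM, tts-1 4409 to 6624 CPM, col-17 at most 1.69 CPM and pcn-1 20.6 to 27.1 CPM. The fasting genes acs-2 (324 to 1413 CPM) and hacd-1 (at most 403 CPM) varied more among them, but stayed above all 3 fed libraries. Batch 2 holds no fed larvae, so batch and feeding cannot be separated in this comparison.

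The response was set beside that of control descendants, which have their own fed and starved libraries. Of the 7910 genes called in long-term dauer descendants that were also tested in control descendants, 7527 were called there (95.2% of the first and 72.3% of the 10416 called in control descendants, 53.7% of those tested), all in the same direction. Across 19406 genes, which are not independent replicates, Pearson's r of the 2 sets of log2 fold changes was 0.923 (0.809 with all 6 libraries). For short-term dauer descendants the shared calls were 7588 (95.9% and 67.1% of the 11304 called there, 58.3% of those tested), again all in the same direction. A difference in the number of calls goes with 2 starved libraries here against 5 in control descendants. The sets also come from different fits. Throughout, calls and medians of control and short-term dauer descendants are from the fit of 24 libraries, which holds starved LC4_49d.

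The difference between the 2 responses was tested as an interaction. At an adjusted p under 0.05, edgeR called 0 genes without starved LC4_49d (185 at an unadjusted p under 0.05) and 0 with it (1738 unadjusted); DESeq2 called 0 and 34, and edgeR 98 when starved LC3_49d was left out and starved LC4_49d kept. The cuticle values stand side by side: the furrow collagens had medians of 6.72 in long-term dauer and 5.69 in control descendants, with 6 of 6 rising in both. The 10 members of the CYP-35 family of detoxifying enzymes, with 2 rising and 1 falling (1 and 0 without either starved library) and a median of 0.92, had 7 rising and a median of 1.87 in control descendants, and no single gene differed in the interaction test. These results do not show that the responses are the same, since in simulated data with 2 starved libraries the test recovered 80.5% of genes whose response differed by 1.5 on the log2 scale, and smaller differences were not simulated.

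**Figure D5:**
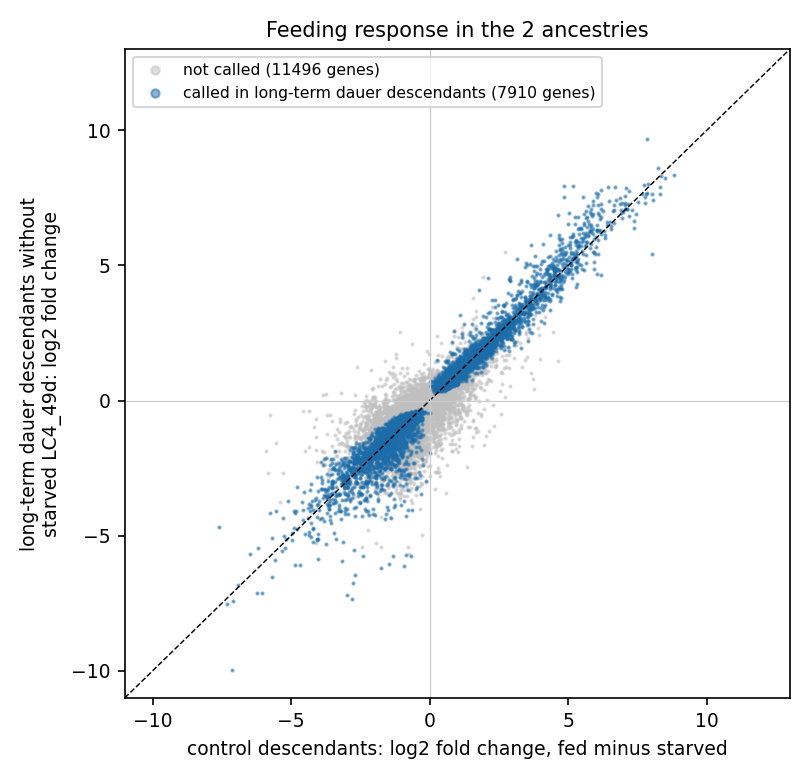
Log2 fold change (fed minus starved) of 19406 genes in long-term dauer descendants without starved LC4_49d against control descendants; genes called in long-term dauer descendants are blue (7910), the rest grey, and the dashed line marks equal values. Called genes lie in the upper right and lower left quadrants along that line.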

How the data were processed

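The deposited values were whole-number read counts per gene for 44968 features, 1 file per library, with 5 summary rows that were left out of library sizes and tests. Per the labels' protocols, polyA RNA went into a non-directional kit, so strand is lost. Bowtie 1.1.2, HTSeq and edgeR are named in the submitters' processing notes without their roles; the genome build and annotation are not given in the sources used here, so no coordinates are printed. Feature names were matched to Ensembl WBcel235 for symbols (44443 matched, 525 did not). Of 93 genes named with the response, 25 have exons that overlap another gene in that annotation. Beside those given above, these are aakg-4, acs-1, akt-1, crt-1, daf-16, daf-36, hsp-17, lin-28, lipl-4, mlt-11, pdi-2, phy-3, pod-2, rps-4 and sqt-3. Part of their reads may belong to the other gene.

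The test was edgeR's quasi-likelihood test (version 4.0.16, R 4.3.3; TMM, filterByExpr by group, robust glmQLFit, glmQLFTest, Benjamini-Hochberg adjustment), with 1 coefficient per ancestry and feeding group of batch 1, on 24 libraries or on 23 without starved LC4_49d. All groups share 1 estimate of the spread, and log2 fold changes with standard errors (size divided by the root of the F statistic) come from these fits. Starved LC14 of short-term dauer descendants enters that estimate. It had the highest share of reads outside genes in batch 1, 12.6%, and the most features with reads, 33444. Its part in the p-values and in the short-term dauer calls was not tested. CPM use TMM factors over 39 libraries and are not divided by gene length, so levels are compared between libraries only. Positions use genes called in control descendants, in the fit of 24 libraries, with a log2 change over 1, on log2 CPM with a prior count of 2. DESeq2 1.42.0 and limma 3.58.1 were alternatives. In simulated counts where 200 genes carried a log2 change of 1.5, edgeR recovered 89.5% of them in fed against starved larvae without starved LC4_49d. Weakly expressed genes were not among the 200, and the spread was taken from control descendants, so real shares may be lower.

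Genes were named as the 10 largest changes per direction, up to 3 called members per direction and the most abundant uncalled member of each of 38 lists, and the genes of starved LC4_49d farthest outside the fed range. The members, lists and rule were chosen with earlier results of these data known.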

Additional observations from a re-analysis of the deposited data

Results flagged for a closer look

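Among the 7 starved long-term dauer libraries of both batches, starved LC4_49d lay far from the rest on the scale from starved (0) to fed (1) control descendants, at 0.968, while the 6 others lay between -0.00686 and 0.0242. Its gap to the nearest library, as a share of the group's range, was above Dixon's 95% critical value. This library was already known to resemble fed larvae, so that result restates the observation and is no independent test of it. It was 1 of 6 groups of positions examined in this way, and chance flags about 1 in 20.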

How the results depend on the processing

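Without starved LC4_49d, the count of 7929 genes stayed within 1.5 times under every other tool, normalization, filter and choice of libraries (7008 to 11678), and ran from 5192 to 7384 when 1 of its 5 libraries was left out; where only 1 starved library remained, its spread was assumed to be that of the other groups. With all 6 libraries the 2356 calls became 4418 in DESeq2, 11717 in limma voom with library weights and 0 when the 6 libraries were fitted alone (2643 at an unadjusted p under 0.05); leaving out 1 library gave 0 to 7929. The difference from control descendants gave 0 calls in edgeR and 34 in DESeq2 with all libraries, and 0 to 98 when 1 was left out. Whether same-named cultures are paired was not settled. Correlations of their deviations were -0.047, 0.292 and 0.142, but starved LC4_49d, far from its group, was among these libraries, so the values cannot decide it. In control descendants same-named pairs lay at 0.332 to 0.409 and other-named pairs at -0.402 to 0.41. A replicate block on the names gave 4869 calls with all 6 libraries and 7647 without starved LC4_49d. Of 93 named genes, 5 lost their call without starved LC3_40d and 8 without starved LC3_49d, as given with each gene, and 1 each without fed LC3_49d (rps-4), without the filter (rps-4) and under the block (pod-2); none changed direction under any alternative. Positions moved little under each alternative scale, beside the distance between starved and fed libraries. With short-term dauer descendants as the reference, starved LC3_49d went from 0.0225 to 0.0537 and fed LC3_49d from 0.876 to 0.93. Such moves can exceed the spread among the starved libraries.

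The response rests on 2 starved libraries that share the name LC3 and on a choice to leave out the other one, made on its values. Genes under 1 CPM rest on few reads.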

Other observations

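More germ cell markers were higher than lower in fed larvae, and the 1 lower call depended on the fit. Of 6, 3 were higher and 1 lower in fed larvae without starved LC4_49d (median log2 fold change 1.04). With a replicate block on the culture names, 3 were higher and 0 lower. With all 6 libraries, 2 were higher and 0 lower. In control descendants 3 were higher and none lower.

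Body wall muscle markers were lower in starved LC4_49d than in the other 5 libraries, at a sum of 5403 CPM against 6536 to 6976 CPM in fed and 8720 and 10222 CPM in starved larvae. Pharynx markers summed to 3771 CPM in it, 3649 to 4551 CPM in fed larvae and 6047 and 6580 CPM in starved LC3_40d and LC3_49d. No body wall muscle marker and 1 pharynx marker passed the test between fed and starved larvae without starved LC4_49d.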
